A study of Nothobranchius furzeri with 30 samples.

Results

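The late ageing step of the killifish neural retina was described as the difference between 10 fish labelled 18 weeks and 10 fish labelled 12 weeks, out of 30 fish in all. The other 10 fish were labelled 6 weeks and served to tell a change of the late step from one already under way between 6 and 12 weeks. All fish were wild-type, untreated female African turquoise killifish (Nothobranchius furzeri) of the inbred GRZ-AD strain, a vertebrate that matures and ages within months. Both retinas of a fish were pooled into 1 sample after the retinal pigment epithelium (RPE), the pigmented layer behind the photoreceptors, had been rinsed off. RNA was read from its 3′ ends, so counts are not scaled to transcript length and levels are compared between ages for a locus, never between loci. The labels give no hour of collection.

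The neural retina holds rods and cones, which turn light into a change of membrane voltage, and bipolar, horizontal, amacrine and ganglion cells, which pass that signal on through ribbon and conventional synapses. Müller glia span the tissue, recycle transmitters and, in fish, can give rise to new neurons. Photoreceptors and other retinal neurons carry a circadian clock: CLOCK, NPAS2 and ARNTL proteins switch on PER, CRY, NR1D and DBP genes, and the PER and CRY proteins then hold their own activators back. Heat-shock proteins are chaperones that keep other proteins folded, and their genes are switched on when misfolded protein accumulates.

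Each fish had between 3626678 and 5804830 counts on annotated loci at 18 weeks, against 3552371 to 5449247 at 12 weeks. The 2 most abundant loci took a mean of 30.8% ± 5.56 of these counts at 18 weeks, against 38.5% ± 3.60 at 12 weeks (SD, n = 10 each, two-sided permutation test with 100000 resamples, p = 0.00247 after Benjamini-Hochberg adjustment over 5 measures of library composition). Reads that could not be given to 1 locus made up 1.22% of reads listed at 18 weeks and 0.995% at 12 weeks (adjusted permutation p = 0.001, n = 10 each). The library of 18-week fish 1 stood apart. It had 18.3% of its counts on the 2 most abundant loci and 1.85% ambiguous reads, and its mean correlation with the other fish of its age was 0.886, while the other 18-week fish lay between 0.953 and 0.959. The mean correlation within an age was 0.949 at 18 weeks and 0.957 at 12 weeks, a difference of −0.0080 (two-sided permutation test, p = 0.266). Without 18-week fish 1 it was 0.0079 higher at 18 weeks (permutation p = 2.17e-05). Each pairwise correlation enters the values of 2 fish, so the values are not independent. These 2 p-values therefore do not test whether fish of an age are more alike. Several results that lean on 18-week fish 1 are given with and without it. The scaling factors (trimmed mean of M values, TMM) averaged 1.12 at 18 weeks and 0.989 at 12 weeks (adjusted permutation p = 0.00247, n = 10 each).

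**Figure D1:**
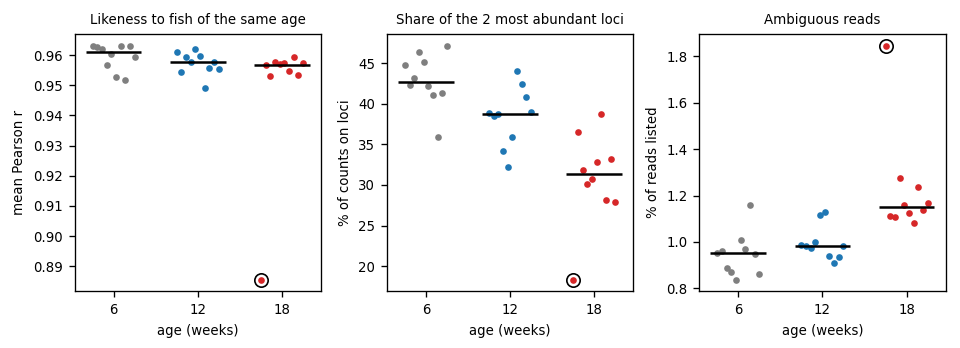
Measures of each library by age, 6, 12 and 18 weeks: the mean Pearson correlation of a fish's log2 CPM with the other fish of its age, the share of counts on the 2 most abundant loci in percent, and the share of ambiguous reads in percent. Points are fish, lines are medians, and the circled point is 18-week fish 1, which lies at 0.886, 18.3% and 1.85%.

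Retinal markers were present at both ages. The summed level of the 23 tested rod phototransduction loci was 20060 to 28870 CPM (counts set to a common library size, scaled by TMM) in 18-week fish, against 19060 to 26490 CPM in 12-week fish, and between 15 and 23 loci of each list of horizontal, bipolar, amacrine, ganglion and Müller cells had enough counts to be tested. Traces of other tissues were also there. The 4 tested red blood cell loci summed to 1090 to 1488 CPM at 18 weeks against 1228 to 1496 CPM at 12 weeks, and 3 lens loci summed to 7.16 to 14.6 CPM at 18 weeks against 4.97 to 11.3 CPM at 12 weeks. In bulk tissue, fewer cells of a type and less RNA per cell cannot be told apart.

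Of 24989 loci listed, 13975 had enough counts to be tested in edgeR's quasi-likelihood model of all 30 fish. A locus is said to be called where its Benjamini-Hochberg adjusted p over all tested loci was under 0.05 and its log2 difference was at least 1, and to have risen or fallen where the adjusted p alone was under 0.05. Between 18 and 12 weeks, 36 loci were called higher (0.258% of those tested) and 107 lower (0.766%). On the adjusted p alone 726 loci rose (5.19%) and 969 fell (6.93%). With library size alone in place of TMM the median log2 difference of all loci moved to 0.19, against 0.01, and the calls became 69 higher and 50 lower, so that 58.0% of calls were higher, against 25.2%. With other scaling factors the calls stayed near those with TMM, at 36 higher and 107 lower with relative log expression (RLE) factors. Upper-quartile factors gave 36 higher and 100 lower. The balance of rises and falls therefore depends on whether such factors are used, and all changes are given on the TMM scale. Of the loci named here, STRA6 (XLOC_019184), RLBP1B, SLC1A2A, FKBP5 (XLOC_015884), SGK1, KLF9, ATF3 and NFE2L1(1OF2) lost an adjusted p under 0.05 with library size alone. Without 18-week fish 1 the calls were 42 higher and 79 lower, of which 105 were among the 143 called with it. For 24 loci (0.172%) every 18-week fish lay above every 12-week fish, and for 53 (0.379%) every 18-week fish lay below every 12-week fish.

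Whether a change belonged to the late step alone was tested as the late difference (18 minus 12 weeks) minus the early difference (12 minus 6 weeks). Both differences use the same 12-week fish, so their values are set side by side and are not correlated with each other. The late difference was the more positive for 33 loci (0.236%) and the more negative for 97 (0.694%). Of the 33, 22 had changed in the late step alone, 9 in the early step alone and 2 in both. Of the 97, 70 had changed in the late step alone, 17 in the early step alone and 10 in both. A called locus was placed in the late step alone where this difference of differences and the late step were both past the threshold with the same sign and the early step was not. By that rule 7 loci were higher and 15 lower in the late step alone, 2 higher and 4 lower continued an early change, 1 lower locus turned back an early rise, and 27 higher and 87 lower could not be placed. These numbers leaned on single 12-week fish: without 12-week fish 7 the late step alone held 3 higher and 4 lower loci, and without 12-week fish 2 it held 4 and 4.

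**Figure D2:**
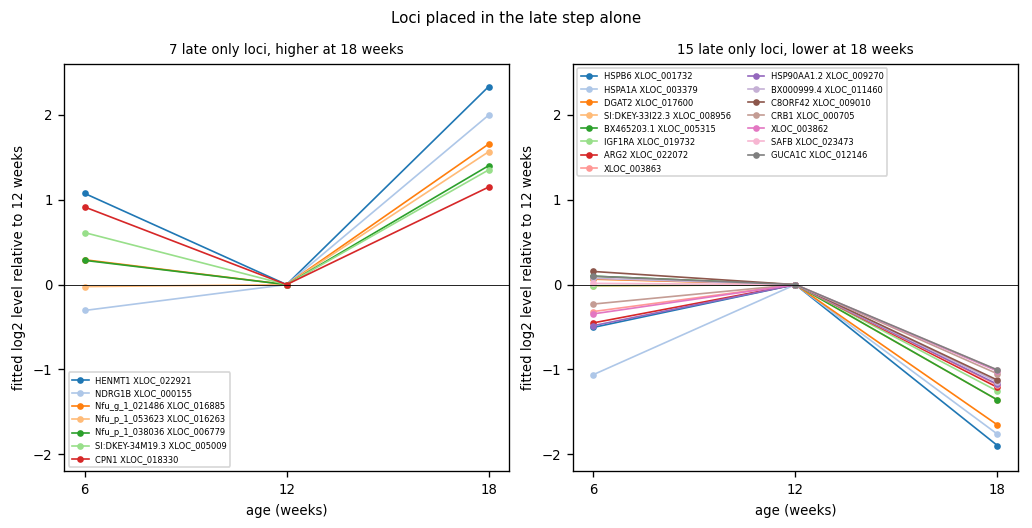
Fitted log2 level at 6, 12 and 18 weeks relative to 12 weeks for the 7 higher (left) and 15 lower (right) loci placed in the late step alone, 1 line per locus. HENMT1 reached 2.33 and NDRG1B 1.997 above the 12-week level at 18 weeks, and HSPB6 and HSPA1A (XLOC_003379) were at −1.897 and −1.76 relative to it.

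HENMT1 and NDRG1B showed the largest rises placed in the late step alone. HENMT1 (XLOC_022921), a methyltransferase that stabilises PIWI-interacting RNAs in the germ line of mice and zebrafish, lay at 2.01, 6.71 and 8.65 CPM (lowest, median and highest) in 18-week fish and at 0.473, 1.04 and 1.83 CPM in 12-week fish. Every 18-week fish lay above every 12-week fish, although the counts behind these levels were small, 11 to 45 reads per fish at 18 weeks and 2 to 10 at 12 weeks. Its log2 difference was 2.33 ± 0.28 (SE, n = 10 each, edgeR adjusted p = 4.95e-07), its early difference was −1.08 (edgeR adjusted p = 0.0545) and the late step differed from the early one (edgeR adjusted p = 0.000454, and under 0.05 in all 30 fits that leave out 1 fish). Without 18-week fish 1 the early fall passed the threshold (edgeR adjusted p = 0.0317), and HENMT1 was then not placed in the late step alone.

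NDRG1B (XLOC_000155), whose mammalian counterpart responds to hypoxia and stress and is needed for myelin upkeep in peripheral nerve, had 204, 241 and 371 CPM at 18 weeks, against 34.1, 49.9 and 108 CPM at 12 weeks and 21.7, 42.01 and 96.6 CPM at 6 weeks. No 18-week fish overlapped the 12-week fish, among which fish 4, 5, 9 and 10 lay at 85.4 CPM or more and the other fish at 51.2 CPM or less. At 6 weeks the fish of these numbers were again the highest, at 71.6 CPM or more, and the other fish lay at 44.2 CPM or less. The log2 difference was 1.997 ± 0.24 (SE, n = 10 each, edgeR adjusted p = 5.14e-07). The test against the early step gave an edgeR adjusted p of 0.0415 and stayed under 0.05 in 15 of the 30 fits that leave out 1 fish. CPN1 (XLOC_018330), the catalytic subunit of carboxypeptidase N, a plasma enzyme that trims peptides such as bradykinin, had 1.70, 4.42 and 8.16 CPM at 18 weeks against 0.914, 2.05 and 3.81 CPM at 12 weeks. At 6 weeks the mean of CPN1 was 3.97 CPM, so its rise of 1.15 followed an early difference of −0.91 (edgeR adjusted p = 0.100). The level at 18 weeks lay only 0.23 above that at 6 weeks on the log2 scale. The rise differed from the early step in 12 of those 30 fits, and without 18-week fish 1 the early fall passed the threshold (edgeR adjusted p = 0.0470).

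The other 4 loci that rose in the late step alone carry no informative name and were chosen for description after their values were seen. Nfu_p_1_038036 (XLOC_006779) had 41.5, 63.4 and 88.4 CPM at 18 weeks, against 10.2, 26.6 and 34.1 CPM at 12 weeks. Nfu_p_1_053623 (XLOC_016263) had 15.7, 23.3 and 40.1 CPM, against 5.11, 8.33 and 13.5 CPM. Nfu_g_1_021486 (XLOC_016885) had 17.8, 27.6 and 50.04 CPM, against 3.83, 9.61 and 16.1 CPM. For these 3 loci the ages did not overlap, with log2 differences of 1.40, 1.57 and 1.66, and at 6 weeks they sat near the 12-week level, with medians of 29.5, 8.39 and 10.9 CPM. The remaining locus, SI:DKEY-34M19.3 (XLOC_005009), rose by 1.35 from counts of at most 10 reads per 12-week fish.

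Heat-shock chaperones were lower at 18 weeks on the TMM scale. Of 42 tested chaperone and heat-shock loci 15 fell (35.7%) and 2 rose (4.76%), against 6.93% and 5.19% of all 13975 tested loci. Of the 42, 5 were called lower, against 0.766% of all tested loci. The list's median log2 difference was −0.18, against 0.01 over all tested loci. For 8 of the 42 the late step was more negative than the early step and for none was it more positive. Over all tested loci these shares were 0.694% and 0.236%. The counts with library size alone were 9 lower and 7 higher and the median was 0.01, below the shifted median of 0.19 over all loci. Without 18-week fish 1, whose summed level of the list was the highest of its age at 9801 CPM against a median of 5836 CPM, the counts were 19 lower and 2 higher.

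HSPA1A, the stress-inducible HSP70, was present as 2 loci of the same name. Reads that could not be given to 1 of them would be in neither count. XLOC_003379 had 0.249, 1.01 and 2.01 CPM at 18 weeks, against 1.43, 3.13 and 7.16 CPM at 12 weeks. XLOC_002541 had 0.873, 2.47 and 3.98 CPM, against 2.38, 6.74 and 24.2 CPM, and had a 6-week median of 2.83 CPM. At 12 weeks both were highest in fish 1, 2, 6 and 7, as they were in the fish of these numbers at 6 weeks and not at 18 weeks, and the lowest 12-week fish overlapped the 18-week fish. The late differences were −1.76 ± 0.41 (SE, edgeR adjusted p = 0.00367) and −2.21 ± 0.35 (SE, edgeR adjusted p = 4.02e-05, n = 10 each). XLOC_002541 had risen by 1.44 in the early step (edgeR adjusted p = 0.0111) and was the 1 called locus that turned back an early change. XLOC_003379 had an early difference of 1.06 that did not pass (edgeR adjusted p = 0.168), which placed it in the late step alone. Its means were 1.86, 3.92 and 1.12 CPM at 6, 12 and 18 weeks, so it too peaked at 12 weeks. Of 126 loci examined fish by fish, 10 had their 4 highest values in the same fish numbers at 12 and at 6 weeks, against 0.966% of all tested loci: both HSPA1A loci, HSP90AA1.2, PDE6C, GRK7A, PCLOA, FABP7A and LDHB(2OF2) in fish 1, 2, 6 and 7, NDRG1B in fish 4, 5, 9 and 10, and FKBP5 XLOC_015884 in fish 3, 4, 8 and 9. Of these, FKBP5 alone had them in the same numbers at 18 weeks too. Fish 1, 2, 6 and 7 were also the 4 highest for further loci that fell, at 12 weeks but not at 6. Among them were RPE65A, RLBP1B, both STRA6 loci, RGRB, MFRP, OCA2, PMELA and DCT. Others were GUCA1C, GRK1(2OF2), UNC119, UNC119B, BDNF, INS, NIN, THBS1B and SI:DKEY-33I22.3. These falls thus share their highest 12-week fish. The labels do not say what a number stands for, and its part in the late differences was not tested beyond a fit with the number as a block, which gave −1.70 and −1.95 for the HSPA1A loci and 2.12 for NDRG1B.

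HSPB6 (XLOC_001732), a small heat-shock protein, had 0.399, 2.66 and 4.71 CPM at 18 weeks, against 2.14, 7.55 and 19.8 CPM at 12 weeks, where fish 6 and 7 were the highest. Its log2 difference of −1.897 ± 0.34 (SE, n = 10 each, edgeR adjusted p = 0.000192) was placed in the late step alone. The early difference of HSPB6 was 0.50 and did not pass (edgeR adjusted p = 0.466), with a mean of 6.57 CPM at 6 weeks, against 9.30 CPM at 12 weeks. HSP90AA1.2 (XLOC_009270), the stress-responsive HSP90, had 429, 631 and 1131 CPM at 18 weeks, against 985.7, 1357 and 2162 CPM at 12 weeks and 754, 1099 and 1495 CPM at 6 weeks. All 18-week fish but fish 1 lay below every 12-week fish. The log2 difference was −1.17 ± 0.15 (SE, n = 10 each, edgeR adjusted p = 1.89e-06), and −1.28 without 18-week fish 1, when its early rise also passed the threshold (edgeR adjusted p = 0.0261).

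Partners of these chaperones fell as well. FKBP4 (XLOC_019234), an HSP90 co-chaperone that binds steroid receptors, had 29.0, 48.5 and 54.4 CPM at 18 weeks, against 56.3, 75.2 and 89.5 CPM at 12 weeks, with no overlap. DNAJB1A (XLOC_009998), an HSP40 that hands clients to HSP70, had 14.8, 23.6 and 27.6 CPM, against 27.5, 38.3 and 41.2 CPM, and 9 fish of 18 weeks were lower than any of 12 weeks. Both late steps differed from the early steps (edgeR adjusted p = 0.00737 for FKBP4 and 0.0117 for DNAJB1A), while neither passed the log2 limit of 1, at −0.64 and −0.65. DNAJB5 (XLOC_006294) fell by 0.94 on the log2 scale, without passing the test against the early step (edgeR adjusted p = 0.0832), which it passed without 18-week fish 1 (edgeR adjusted p = 0.0319) and in no other fit that leaves out 1 fish.

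Loci of the glucocorticoid stress response moved both ways, with 4 of 20 lower (20%), 2 higher (10%) and a median of −0.07. Of all tested loci 6.93% fell and 5.19% rose. FKBP5, a brake on the glucocorticoid receptor that also binds HSP90, was lower at both of its loci, by 0.86 and 0.55 on the log2 scale (edgeR adjusted p = 0.000313 for XLOC_015883 and 0.0472 for XLOC_015884, which gave 0.0593 without 18-week fish 1 and passed in 11 of the 30 fits that leave out 1 fish). XLOC_015883 had 70.9, 112 and 184 CPM at 18 weeks, against 141, 209 and 280.3 CPM at 12 weeks. SGK1 and KLF9, which the receptor switches on, fell by 0.42 and 0.53. PDK4, a kinase that spares glucose, rose by 0.59. Of 21 immediate early loci 3 fell (14.3%) and 1 rose (4.76%), with a median of −0.18. Both called ones, FOSB and NR4A1, fell. FOSB (XLOC_011568) had 0.221, 1.48 and 2.26 CPM at 18 weeks against 0.897, 4.45 and 8.46 CPM at 12 weeks and was called lower by 1.80, and NR4A1 (XLOC_016762) was called lower by 1.07. ATF3, a stress-induced transcription factor, fell by 0.72. For none of these did the late step differ from the early one past the threshold.

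The clock loci past the threshold moved mostly in opposite directions by role. Of 10 activators 6 rose (60%) and none fell, with a median log2 difference of 0.60. Of 24 repressors and output genes 11 fell (45.8%) and 2 rose (8.33%), with a median of −0.29. Of all tested loci 5.19% rose and 6.93% fell. The median of all tested loci was 0.01. The late step was more negative than the early one for 6 of the 24 and more positive for 1 of the 10. Over all tested loci it was more negative for 0.694% and more positive for 0.236%. With library size alone the activators had 6 rises and no fall, and the repressors and outputs 9 falls and 4 rises. Without 18-week fish 1 the activators had 6 rises and 1 fall. Since the labels give no hour of collection, a difference of age and one of hour cannot be told apart here. Within an age, fish of some numbers were often highest. NPAS2 was highest in fish 4, 5, 9 and 10 at 18 and at 6 weeks, ARNTL in them at 12 weeks, and RORCA and RORCB at 6 weeks. CLOCK was highest in fish 1, 5, 9 and 10 at 18 and at 12 weeks. At the other ages the 4 highest fish of these loci differed. The part of the fish number in the clock differences was not tested beyond a fit with the number as a block. In that fit NPAS2, ARNTL, RORCA, RORCB and CLOCK stayed past the threshold.

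Among activators, ARNTL (XLOC_019435), the BMAL1 partner of CLOCK, had 6.68, 12.8 and 18.5 CPM at 18 weeks, against 3.53, 5.78 and 10.8 CPM at 12 weeks and a median of 5.73 CPM at 6 weeks. It was called higher by 1.13 ± 0.21 (SE, n = 10 each, edgeR adjusted p = 0.000272), and 7 fish of 18 weeks were higher than any of 12 weeks. CLOCK rose by 0.80, ARNTL2 by 0.71 and NPAS2 by 0.60. RORCA (XLOC_023515), a nuclear receptor that drives ARNTL, had 103.2, 130.0 and 175 CPM, against 62.8, 87.5 and 102.6 CPM, and every 18-week fish lay above every 12-week fish, if by little. Its late step differed from the early one (edgeR adjusted p = 0.0467), though in only 12 of the 30 fits that leave out 1 fish. RORCB rose by 0.60.

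Among repressors, PER1 (XLOC_008901) had 55.48, 65.2 and 83.2 CPM at 18 weeks, against 100.4, 123 and 141 CPM at 12 weeks and 99.8, 117 and 149 CPM at 6 weeks. The ages did not overlap, and the log2 difference was −0.82 ± 0.09 (SE, n = 10 each, edgeR adjusted p = 8.05e-08), against an early difference of 0.04. The test of late against early gave an edgeR adjusted p of 0.0017 and held in all 30 fits that leave out 1 fish. PER3 (XLOC_016747) had 64.7, 82.7 and 98.1 CPM, against 112, 119 and 132 CPM, again with no overlap. PER2 was present as XLOC_015352, which fell by 0.90, and as XLOC_018419, which had 8.41, 12.051 and 31.1 CPM against 8.56, 13.1 and 18.13 CPM (log2 difference 0.03, edgeR adjusted p = 0.938). Both PER2 loci were chosen after their values were seen. BHLHE41 and BHLHE40, repressors that compete with CLOCK for DNA, fell by 0.81 and 0.64. The 1 called locus among the repressors and outputs was C19H1ORF51(1OF2), lower by 1.34.

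DBPA and DBPB code for D-box transcription factors that carry the clock's phase to other genes. DBPA (XLOC_024675) had 114, 125 and 150.3 CPM at 18 weeks, against 168, 203 and 230.4 CPM at 12 weeks. DBPB (XLOC_010608) had 44.7, 85.8 and 100.3 CPM, against 115, 137 and 154 CPM. Neither locus overlapped between the ages, and for both the late step was more negative than the early one (edgeR adjusted p = 0.0318 and 0.00505). This test stayed under 0.05 in 20 of the 30 fits that leave out 1 fish for DBPA and in all 30 for DBPB. Of the 24 repressor and output loci 5 had no overlap between the ages and the 18-week fish the lower, namely PER3, BHLHE41, PER1, DBPA and DBPB. Of all tested loci 53 (0.379%) did so.

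Loci for AANAT, the enzyme that sets the nightly rhythm of melatonin synthesis, moved apart. AANAT(2OF3) (XLOC_008564) had 45.4, 80.5 and 91.6 CPM at 18 weeks, against 19.4, 33.1 and 48.6 CPM at 12 weeks and 12.9, 18.5 and 24.8 CPM at 6 weeks, so that the rise of 1.15 (SE 0.14, edgeR adjusted p = 5.14e-07) continued an early rise of 0.85. AANAT(1OF3) (XLOC_013979) had 38.9, 52.4 and 72.6 CPM, against 57.3, 79.9 and 131 CPM. Its late fall of 0.66 followed an early rise of 0.96, and the steps differed (edgeR adjusted p = 5.06e-05). CIRBP (XLOC_015409), a cold-inducible RNA-binding protein with a daily rhythm in mammals, had 304, 352 and 459 CPM at 18 weeks, against 238, 258 and 300.1 CPM at 12 weeks, with no overlap and a rise of 0.46.

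**Figure D3:**
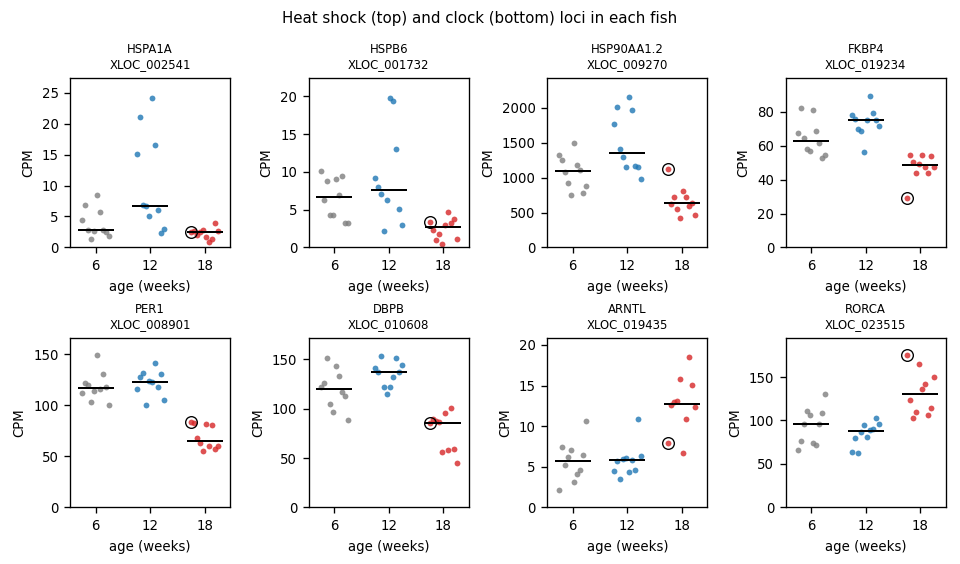
CPM of heat-shock and clock loci in each fish at 6, 12 and 18 weeks, 1 panel per locus, with medians as lines and 18-week fish 1 circled. PER1 lay between 55.48 and 83.2 CPM at 18 weeks, against 100.4 to 141 CPM at 12 weeks, while RORCA lay between 103.2 and 175 CPM, against 62.8 to 102.6 CPM.

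Most cone loci and few rod loci fell. Of 12 cone phototransduction loci 8 fell (66.7%) and none rose, with a median log2 difference of −0.54. Of all tested loci 6.93% fell and 5.19% rose. The summed level of the cone list was 4556, 4959 and 6022 CPM at 18 weeks. It was 5481, 7107 and 10240 CPM at 12 weeks and 6755, 7793 and 10980 CPM at 6 weeks. Of 23 rod loci 1 fell (4.35%) and 2 rose (8.7%), with a median of −0.04. The cone list with library size alone had 5 falls and 1 rise and a median of −0.36. The cone sum at 12 weeks was highest in fish 7 and lowest in fish 10. The late step was more negative than the early one for 0.694% of all tested loci and for 1 of the 12 cone loci.

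GUCA1C (XLOC_012146), a calcium sensor that switches guanylate cyclase on after light, was that locus. It had 24.9, 29.99 and 52.8 CPM at 18 weeks, against 45.2, 68.3 and 93.4 CPM at 12 weeks and 54.3, 69.7 and 96.6 CPM at 6 weeks. Of the 18-week fish, 9 were lower than any 12-week fish. The log2 difference was −1.01 ± 0.14 (SE, n = 10 each, edgeR adjusted p = 4.14e-06) and −0.96 without 18-week fish 1, under the limit of 1. The test against the early step stayed under 0.05 in 11 of the 30 fits that leave out 1 fish.

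PDE6C (XLOC_018345), the catalytic subunit of the cone phosphodiesterase, had 416, 537 and 662 CPM at 18 weeks, against 570.3, 889.7 and 1406 CPM at 12 weeks. The 12-week fish 1, 2, 6 and 7 were the highest, as for HSPA1A. The log2 difference was −0.85 ± 0.12 (SE, n = 10 each, edgeR adjusted p = 1.17e-05). GRK7A, the kinase that shuts off cone opsins, fell by 0.77, with 51.1 CPM in 18-week fish 1 and 216 to 307 CPM in the other 18-week fish, and by 0.64 without that fish. Among rod loci, the rhodopsin kinases moved apart, GRK1(2OF2) lower by 0.75 and GRK1B higher by 0.66. For GRK1(2OF2) the late step differed from the early one (edgeR adjusted p = 0.0303), in 23 of the 30 fits that leave out 1 fish.

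Loci of the photoreceptor cilium, of cell polarity and of Usher syndrome, a human loss of hearing and sight, showed 14 falls (21.9%) and 1 rise (1.56%) among 64 tested. Of all tested loci 6.93% fell and 5.19% rose. The list's median was −0.15. With library size alone these were 10 falls and 5 rises and the median was 0.02, below that of all loci at 0.19. CRB1 (XLOC_000705), a polarity protein at the photoreceptor and Müller cell junctions that is mutated in human retinal dystrophies, had 14.4, 17.9 and 24.97 CPM at 18 weeks, against 26.9, 36.8 and 54.9 CPM at 12 weeks. The ages did not overlap, and the fall of 1.05 was placed in the late step alone (edgeR adjusted p of the difference 0.0212). Its relative CRB2A fell by 0.73. RP1L1 (XLOC_011851), which binds the microtubules of the photoreceptor axoneme, had 168, 191 and 246 CPM, against 234, 343 and 508 CPM, a fall of 0.79 that differed from the early step (edgeR adjusted p = 0.0316). That difference stayed past the threshold in 22 of the 30 fits that leave out 1 fish.

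A further locus whose second name in the files is rp1l1, SI:DKEY-33I22.3 (XLOC_008956), had 149.6, 347 and 475 CPM at 18 weeks, against 511, 771 and 1284 CPM at 12 weeks and 533, 829.7 and 1315 CPM at 6 weeks. It was chosen after its values were seen, its ages did not overlap, and its log2 difference was −1.36 ± 0.18 (SE, n = 10 each, edgeR adjusted p = 1.56e-06). RPGRB, a regulator of the connecting cilium, was called lower by 1.17, and both PCDH15A loci fell, XLOC_007695 by 1.102 from counts of 13 to 28 reads per 12-week fish and XLOC_018820 by 0.69. Without 18-week fish 1 the log2 differences of RPGRB, XLOC_007695 and XLOC_018820 were −1.05, −0.97 and −0.56. That of XLOC_007695 was then under the limit of 1. UNC119 and UNC119B, carriers of lipid-tailed transducin, fell by 0.74 and 0.48.

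Markers of the RPE, which the dissection was meant to remove, also differed between the ages. Of 10 RPE visual cycle loci 6 fell (60%) and none rose (median −0.76). Of 13 melanin and melanosome loci 6 fell (46.2%) and 1 rose (7.69%, median −0.62). Of all tested loci 6.93% fell and 5.19% rose. The RPE list summed to 431.8, 661.7 and 1110.0 CPM at 18 weeks, against 352, 844.5 and 2210 CPM at 12 weeks and 1030, 1523 and 2065 CPM at 6 weeks. The melanin list summed to 131.9, 154 and 226.4 CPM, against 124.5, 216.4 and 459.8 CPM. The 12-week fish thus covered the whole range of the 18-week fish, with fish 8 the lowest and fish 7 the highest in both lists. None of the 6 RPE loci that fell was at 0 in any fish, and for none of either list did the late step differ from the early step.

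RPE65A (XLOC_015316), the isomerase of the visual cycle, had 96.0, 179 and 306 CPM at 18 weeks, against 93.5, 286 and 825 CPM at 12 weeks. The vitamin A transporters STRA6(2OF2) (−1.34) and STRA6 (−0.78), the opsin RGRB (−0.89), MFRP (−1.03), a membrane protein needed for eye growth, and RLBP1B (−0.74), which binds retinal, fell as well. STRA6 and RLBP1B did not pass without 18-week fish 1 (edgeR adjusted p = 0.0620 and 0.0711), and passed in 19 and 8 of the 30 fits that leave out 1 fish. Of the pigment loci, PMELB and PMELA, the fibrils of the melanosome, fell by 1.01 and 0.97, SLC24A5 and OCA2, which set the melanosome's ion balance, by 1.05 and 0.98, and DCT, a melanin enzyme, by 0.91. PMELB was at −0.98 without 18-week fish 1, under the log2 limit of 1. With the mean log2 CPM of the tested loci of both lists, the RPE and melanin score, as covariate, none of these 11 loci, which are part of the score, passed the threshold, RPE65A having a log2 difference of −0.07 and PMELB −0.22.

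That covariate moved the whole comparison to 52 loci higher and 64 lower, and 80 of the 143 calls were shared. PER1 (−0.79), CRB1 (−0.89), PCLOA (−0.87), PDE6C (−0.62), HSP90AA1.2 (−0.93) and NDRG1B (1.84) stayed past an edgeR adjusted p of 0.05 with it, and GRK7A (−0.52, edgeR adjusted p = 0.138) and HSPA1A XLOC_003379 (−1.28, edgeR adjusted p = 0.0773) did not. Beyond the pigment loci, 22 of the loci named here lost an adjusted p under 0.05 with the covariate: these 2, RORCB, NPAS2, UNC119B, PCDH15A XLOC_018820, INS, IGF2BP1, SLC1A2A, FABP7A, PDK4, ATF3, IGFBP1A, PKMB, PFKPB, SQSTM1, MAP1LC3B, TPP1, HIST1H2BD(2OF2) XLOC_005749, THBS1B, PRELP and PLP1B. TRIM25, an interferon response locus, gained one (1.03, edgeR adjusted p = 0.0309). The part of the RPE in the other results was not tested beyond these values.

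**Figure D4:**
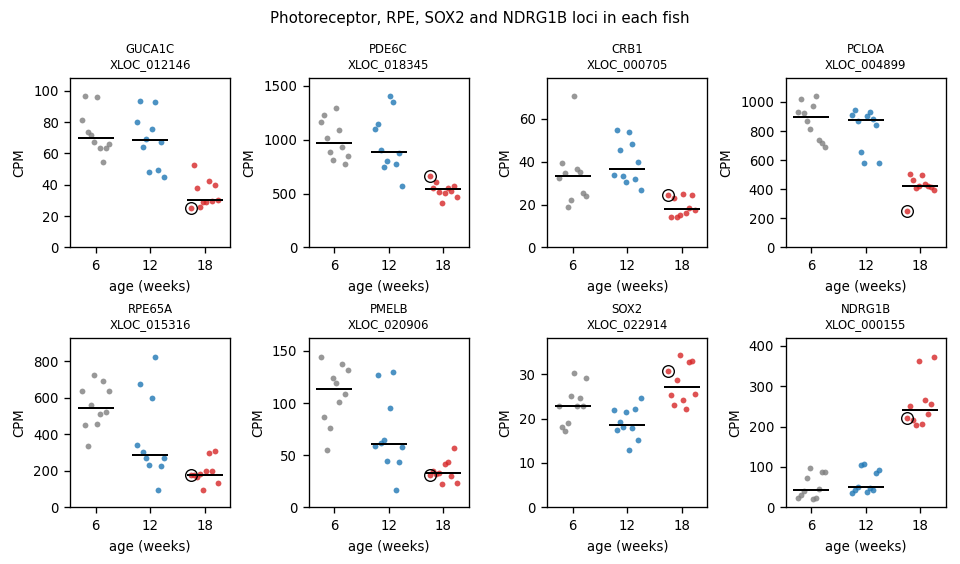
CPM in each fish at 6, 12 and 18 weeks for photoreceptor, RPE, SOX2 and NDRG1B loci, 1 panel per locus, with medians as lines and 18-week fish 1 circled. RPE65A spread from 93.5 to 825 CPM over the 12-week fish, around the 96.0 to 306 CPM of the 18-week fish, whereas NDRG1B lay between 204 and 371 CPM at 18 weeks, against 34.1 to 108 CPM at 12 weeks.

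Synaptic loci moved in both directions, with large scaffold proteins among the falls. Of 82 synaptic vesicle and ribbon loci 10 fell and 7 rose (median −0.05), of 98 voltage-gated channel loci 14 fell and 5 rose (median −0.12), and of 72 glutamate, GABA and glycine receptor loci 5 fell and 4 rose (median −0.06). Of the synaptic loci 12.2% fell and 8.54% rose, and of the channel loci 14.3% and 5.1%. Among the receptors 6.94% fell and 5.56% rose. Of all tested loci 6.93% fell and 5.19% rose, so the receptors and the channel rises lay close to those shares. All 3 medians with library size alone were above 0, at 0.13, 0.05 and 0.11, and below the 0.19 of all loci, and the rises and falls were 21 and 6 for synaptic, 17 and 3 for channel and 8 and 4 for receptor loci. Without 18-week fish 1 the 7 synaptic rises became 3.

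PCLOA (XLOC_004899), or Piccolo, a scaffold of the presynaptic zone and the photoreceptor ribbon, had 250.5, 422 and 507 CPM at 18 weeks, against 579.9, 876 and 945 CPM at 12 weeks and 688, 894 and 1039 CPM at 6 weeks. The ages did not overlap, and the log2 difference was −0.94 ± 0.11 (SE, n = 10 each, edgeR adjusted p = 3.12e-07), or −0.88 without 18-week fish 1, which had the lowest value. Its late step differed from the early one (edgeR adjusted p = 0.0164). PCLOB fell by 0.63 and BSN (3 OF 3), or Bassoon, a partner of Piccolo, by 0.49. SLC17A7(2OF2), which loads glutamate into vesicles, fell by 0.47.

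KCNB2 (XLOC_015530), a delayed-rectifier potassium channel, had 77.6, 100.2 and 176 CPM at 18 weeks, against 146, 198 and 245 CPM at 12 weeks, and 9 fish of 18 weeks were lower than any of 12 weeks. Its fall of 0.82 differed from the early step (edgeR adjusted p = 0.0017, and under 0.05 in all 30 fits that leave out 1 fish). KCNA3(2OF2) rose by 0.63. GABRB1, a GABA receptor subunit, rose by 0.84, with a 12-week median of 4.46 CPM. CCK (1 OF 2) (XLOC_014387), a neuropeptide of amacrine cells in mammals, was chosen after its values were seen. It had 31.5, 39.7 and 57.1 CPM at 18 weeks, against 6.90, 21.2 and 28.3 CPM at 12 weeks and 8.66, 11.6 and 17.1 CPM at 6 weeks, so that its called rise of 1.03 continued an early one of 0.70.

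Of 44 growth factor signalling loci 6 fell (13.6%) and none rose, against 6.93% and 5.19% of all tested loci. Their median was −0.06, and 18 of the 44 lay above 0. IGF1RA (XLOC_019732), a receptor for insulin-like growth factor 1, had 2.26, 10.8 and 13.7 CPM at 18 weeks, against 16.2, 22.7 and 35.3 CPM at 12 weeks and 17.1, 23.4 and 32.2 CPM at 6 weeks. There was no overlap, the fall of 1.26 (SE 0.18, n = 10 each, edgeR adjusted p = 6.12e-06) was placed in the late step alone, and it was 1.13 without 18-week fish 1, the lowest. IGF1, the ligand of that receptor, and INS, or insulin, fell by 0.80 and 1.05. BDNF (XLOC_013115), a survival factor for ganglion cells, had 1.11, 3.68 and 4.73 CPM against 3.29, 8.77 and 14.8 CPM and was called lower by 1.44, and NGFR (3 OF 3), a neurotrophin receptor, fell by 0.63.

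CHAC1(1OF2) (XLOC_022297), which breaks down glutathione and is switched on by the ATF4 stress pathway, had the lowest adjusted p named here. It had 15.1, 18.6 and 22.4 CPM at 18 weeks, against 29.6, 61.9 and 87.5 CPM at 12 weeks and 65.4, 77.5 and 117 CPM at 6 weeks. Its log2 difference was −1.66 ± 0.15 (SE, n = 10 each, edgeR adjusted p = 6.59e-10). It continued an early fall of 0.53 and was steeper in the late step (edgeR adjusted p of the difference 0.0126). SOD3, a secreted superoxide dismutase, was called lower by 1.77 from counts of 6 to 39 reads per 12-week fish. In the antioxidant and glutathione list as a whole 4 of 44 loci fell (9.09%) and 2 rose (4.55%), with a median of 0.01. These shares lay close to the 6.93% and 5.19% of all tested loci.

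IGF2BP3 and IGF2BP1, RNA-binding proteins of embryonic and progenitor cells, continued early falls. IGF2BP3 (XLOC_015046) had 0.664, 1.2003 and 2.99 CPM at 18 weeks, against 1.51, 3.59 and 5.29 CPM at 12 weeks and 4.06, 7.26 and 11.2 CPM at 6 weeks. IGF2BP1 (XLOC_021934) had 0.524, 1.79 and 2.43 CPM, against 0.442, 3.43 and 7.63 CPM and 6.85, 8.68 and 10.5 CPM at 6 weeks. Their late differences were −1.43 and −1.08, the latter −0.99 and under the log2 limit of 1 without 18-week fish 1. They followed early ones of −1.09 and −1.33, and the steps did not differ past the threshold. Both histone H2B loci of the name HIST1H2BD(2OF2) likewise fell in both steps, XLOC_005749 by 0.61 after 1.15 and XLOC_005528 by 0.93 after 0.67. The histone list showed 3 falls and 3 rises among 16 in the late step (18.8% each, against 6.93% and 5.19% of all tested loci).

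Other loci that fell in the late step alone have varied roles. DGAT2 (XLOC_017600), which makes triglycerides, had 1.06, 2.002 and 2.74 CPM at 18 weeks, against 2.91, 5.74 and 10.1 CPM at 12 weeks, with no overlap and a log2 difference of −1.65. ARG2 (XLOC_022072), a mitochondrial arginase, had 0.754, 3.69 and 5.72 CPM, against 4.76, 7.37 and 15.4 CPM, a fall of 1.21 that differed from the early step in 16 of the 30 fits that leave out 1 fish. SAFB (XLOC_023473), a nuclear scaffold protein that binds RNA, had 12.4, 19.6 and 29.5 CPM, against 30.3, 40.7 and 51.9 CPM, with no overlap. Its log2 difference was −1.01, and −0.94 without 18-week fish 1.

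A further 5 loci that fell in the late step alone were chosen after their values were seen. BX465203.1 (XLOC_005315), with the second name abcc5, a transporter of cyclic nucleotides in mammals, had 8.76, 12.4 and 18.8 CPM at 18 weeks, against 19.6, 33.7 and 48.1 CPM at 12 weeks. XLOC_003862 and XLOC_003863 carry no gene name and had medians of 408 and 68.0 CPM, against 771 and 149 CPM. Their log2 differences were −1.36, −1.02 and −1.18, and all but XLOC_003863 showed no overlap. C8ORF42, with the second name tdrp, and BX000999.4 fell by 1.13 and 1.15, and BX000999.4 differed from the early step in 15 of the 30 fits that leave out 1 fish. XLOC_003863 was at 8.68 CPM in 18-week fish 1, and without that fish its difference was −1.05 and that of XLOC_003862 −0.94.

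Of the largest called falls not placed by the test of the steps, NIN (XLOC_022542), a centrosome protein, had 0.698, 2.09 and 4.74 CPM at 18 weeks, against 3.66, 7.86 and 19.4 CPM at 12 weeks, a fall of 1.94 (edgeR adjusted p of the difference 0.0539, and 0.0441 without 18-week fish 1). ERFL3, an ETS repressor, and DSPA, a desmosome protein of epithelia and heart, fell by 1.48 and 1.30 with no overlap between ages, and DSPA was the only one of 7 surface epithelium loci to change. HAPLN4, which links hyaluronan to proteoglycans, PNPLA7A, a lysophospholipase, and ADAD2, a double-stranded RNA binding protein of the testis, fell by 1.66, 1.62 and 1.59, with 12-week medians between 2.33 and 3.53 CPM. In the extracellular matrix list 9 of 67 loci fell (13.4%) and 6 rose (8.96%), with a median of −0.17. Of all tested loci 6.93% fell and 5.19% rose. THBS1B, a matrix protein that limits vessel growth, and PRELP, a small proteoglycan, fell by 1.03 and 1.2. HTRA1B, a secreted protease, and TIMP2A, a protease inhibitor, rose by 0.61 and 0.46.

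**Figure D5:**
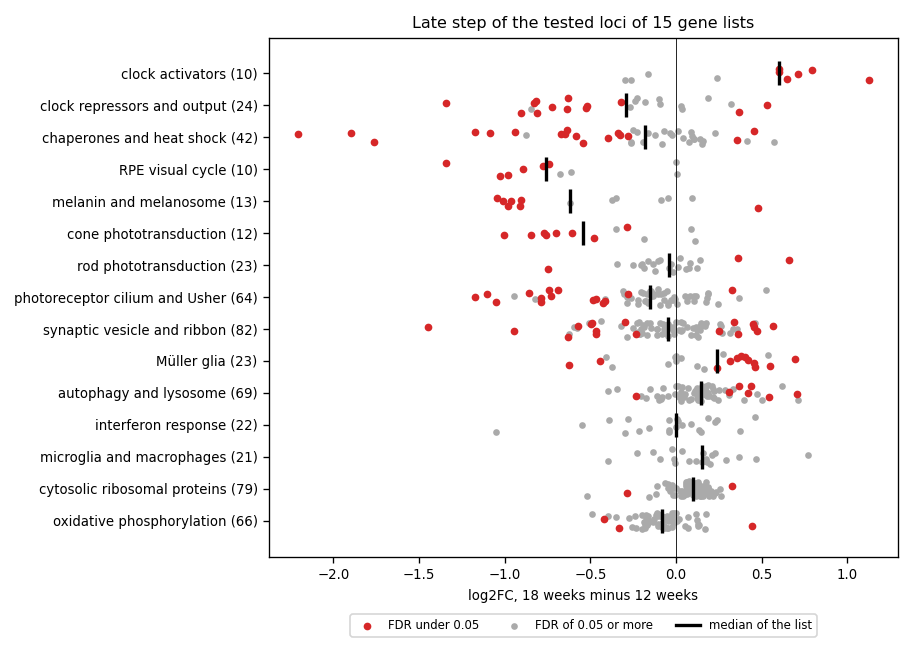
Log2 difference between 18 and 12 weeks of each tested locus in 15 gene lists, with the number of tested loci in parentheses. Red points had an adjusted p under 0.05, grey points did not, and the bar is the list's median, for example 0.60 for clock activators and −0.54 for cone phototransduction.

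Glial loci rose more often than they fell. Of the Müller glia loci 43.5% rose and 8.7% fell, against 5.19% and 6.93% of all tested loci. Of 23 Müller glia loci 10 rose and 2 fell, with a median log2 difference of 0.24 and summed levels of 3424, 3629 and 4042 CPM at 18 weeks, against 3000, 3251 and 3516 CPM at 12 weeks and 2859, 2894 and 3034 CPM at 6 weeks. RLBP1A (XLOC_009329), a retinal-binding protein of Müller cells in zebrafish, had 728, 809.7 and 1040 CPM, against 505, 597 and 772 CPM. Its rise of 0.46 followed one of 0.26 that did not pass (edgeR adjusted p = 0.0508) but did without 18-week fish 1 (edgeR adjusted p = 0.0168). ITGB5, an integrin that binds vitronectin, rose by 0.70. SLC1A2A, a glutamate transporter, and FABP7A, a lipid carrier of radial glia, fell by 0.44 and 0.63. Without 18-week fish 1 there were 9 rises and 2 falls. In the early step 5 of the 23 Müller glia loci had already risen and 2 had fallen, against 181 and 127 of all 13975 tested loci. The late step was more positive than the early one for 1 of the 23, so most of the glial rise was not placed in the late step.

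SOX2 rose in the late step and not in the early one. SOX2 (XLOC_022914), a transcription factor of Müller glia and progenitors, had 22.2, 27.2 and 34.3 CPM at 18 weeks, against 12.9, 18.6 and 24.7 CPM at 12 weeks and 17.2, 22.9 and 30.2 CPM at 6 weeks. The rise was of 0.55, and the late step was the more positive (edgeR adjusted p = 0.0372). The 12-week median of SOX2 lay below its 6-week median, which adds to this difference of the steps. The bipolar list had 2 rises (10.5%) and 4 falls (21.1%) among 19, with a median of −0.09. Of 13 oligodendrocyte and myelin loci 3 rose (23.1%), PLP1B, a myelin proteolipid, by 0.50, and none fell, with a median of 0.32. Of all tested loci 5.19% rose and 6.93% fell.

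Autophagy and lysosome loci leaned upward by small amounts, with 55 of 69 (79.7%) above 0, against 51.8% of all tested loci. They had 6 rises (8.7%), 1 fall (1.45%) and a median of 0.14. Of all tested loci 5.19% rose and 6.93% fell. With library size alone the list had 27 rises and no fall. SQSTM1 (XLOC_005431), the receptor that carries ubiquitin-tagged cargo, had 12.8, 15.2 and 18.2 CPM at 18 weeks, against 8.94, 10.8 and 14.3 CPM at 12 weeks and 5.25, 7.10 and 11.9 CPM at 6 weeks, rising by 0.44 after an early rise of 0.53. The lysosomal proteases TPP1 and CTSZ rose by 0.42 and 0.71. MAP1LC3B, a coat protein of autophagosomes, rested on 18-week fish 1, at 299 CPM against a median of 90.03 CPM, and its log2 difference of 0.54 became 0.24 without it (edgeR adjusted p = 0.109).

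Glycolysis loci had 5 rises (11.9%) and 2 falls (4.76%) among 42, against 5.19% and 6.93% of all tested loci. Their median was 0.12, and with library size alone they had 18 rises and 1 fall. PFKPB, the platelet-type phosphofructokinase that commits glucose to glycolysis, rose by 0.77 (0.56 without 18-week fish 1), ALDOCA, an aldolase of brain, by 0.74, and PKMB, a pyruvate kinase with at most 19 reads per 12-week fish, was called higher by 1.35. LDHB(2OF2) (XLOC_019589), a lactate dehydrogenase subunit, had 62.5, 87.6 and 129 CPM, against 92.7, 141 and 235 CPM, a fall of 0.84 that differed from the early step (edgeR adjusted p = 0.0164).

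Among the other large rises, MYO18AA (XLOC_003434), an unconventional myosin, had 32.1, 49.3 and 122 CPM at 18 weeks, against 6.28, 15.6 and 33.5 CPM at 12 weeks, a log2 difference of 1.76 ± 0.26 (SE, n = 10 each, edgeR adjusted p = 1.01e-05). DNAI1 (XLOC_020595), a dynein chain of motile cilia, had 7.48, 31.7 and 77.2 CPM, against 2.65, 7.85 and 16.4 CPM, a rise of 1.99. For MYO18AA 8 and for DNAI1 7 fish of 18 weeks were higher than any of 12 weeks. SPINT2, an inhibitor of serine proteases, NACC2(2OF2), a transcriptional repressor, SIGIRR, a damper of interleukin-1 signalling, CYP24A1, which degrades vitamin D, and IGFBP1A, which binds insulin-like growth factors, were called higher by 1.68, 1.45, 1.26, 1.25 and 1.21, from 12-week medians of 1.14 to 5.14 CPM. None of these 7 was placed in the late step alone.

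Several groups had few or no loci past the threshold in the late step. Of all tested loci 5.19% rose and 6.93% fell, so none past it in a list of 9 or 10 loci lies close to those shares. In the early step 181 of all 13975 tested loci rose. Of 22 interferon response loci 0 passed in edgeR, 0 by DESeq2 and 0 at an unadjusted p under 0.05, with a median of 0.00, while their early median was 0.79 with 10 rises, and for 3 the late step was the more negative. The summed level of that list had medians of 223.8, 270.2 and 344.5 CPM at 6, 12 and 18 weeks. Its highest 12-week sum was 853.5 CPM, in fish 2. TRIM25, a ubiquitin ligase of antiviral sensing, had a late difference of 0.01 (1.03 with the RPE and melanin covariate) and rose early by 1.98. Its 12-week mean leaned on fish 2 and 7, at 51.8 and 45.0 CPM, while the others lay between 4.995 and 12.4 CPM. At 18 weeks TRIM25 had 7.46 to 38.5 CPM. APOEB, a lipid carrier of microglia in zebrafish, had a late difference of −0.01 and an early one of 1.70. For APOEB and NFKB2, an NF-κB subunit with −0.50 late (edgeR adjusted p = 0.0631) and 1.28 early, the steps differed (edgeR adjusted p = 0.000773 and 0.0017). NFKB2 passed in the late step without 18-week fish 1 (−0.62, edgeR adjusted p = 0.0118). NFE2L1(1OF2), which drives proteasome genes, fell by 0.32 in the late step and had risen by 0.50 in the early step. Of 21 microglia and macrophage, 9 antigen presentation and 10 complement and inflammation loci 0 passed in edgeR or DESeq2 in the late step, and 2, 1 and 2 had an unadjusted p under 0.05. Of 79 cytosolic ribosomal protein loci 1 rose and 1 fell. Of them 63 (79.7%) lay above 0, against 51.8% of all tested loci, with a median of 0.10. With library size alone 50 rose, as did 2941 of all 13975 tested loci. Of 66 oxidative phosphorylation loci 1 rose and 2 fell, of 45 proteasome loci 1 fell, and of 33 senescence and p53 loci 1 fell.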

How the data were processed

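Retinas of 30 fish, 10 each at 6, 12 and 18 weeks, were profiled by QuantSeq 3′ RNA sequencing. Per the labels and the study's methods the authors trimmed reads with Trim Galore 0.6.7 (cutadapt 3.4, FastQC 0.11.9), mapped them with STAR 2.7.0 to a custom transcriptome, cleaned them with SAMtools 1.9.4 and counted them per locus with HTSeq 0.11.2, and the submitters' processing notes also name edgeR 3.42.4. That transcriptome was built on the GRZ assembly with a custom annotation, and no coordinates of it are used here. The deposited values are raw counts per locus in 1 file per fish. Reads without a locus (18.0 to 24.7% of reads at 18 and 12 weeks) and ambiguous reads entered neither library sizes nor tests. Symbols came from the deposited annotation, whose single-cell summary columns were not used.

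Loci were filtered with filterByExpr, scaled by TMM and tested with edgeR 4.0.16 (limma 3.58.1, R 4.3.3) by the quasi-likelihood test, with 1 coefficient per age over all 30 fish, no covariate and Benjamini-Hochberg adjustment over 13975 loci. The late difference is 18 minus 12 weeks, the early one 12 minus 6 weeks, and their difference was tested as a contrast. CPM are TMM-scaled. Composition was compared by two-sided permutation tests with 100000 resamples. Alternatives were other scalings, filters, the 20 later fish alone, a replicate block, the RPE and melanin score as covariate, a robust fit, DESeq2 1.42.0, no log2 limit, and leaving out each fish. The block was checked against the correlation of same-numbered fish. The scripts were tested on simulated data.

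Loci were named by rule: per direction the 12 called loci with a gene name, the largest log2 difference and a mean of at least 2 CPM at the higher age, the 10 of the late step alone with a gene name and the lowest p of the difference between steps, per gene list up to 6 loci with the lowest adjusted p under 0.05 or, where there were none, its 2 most abundant, and the genes of the study's text. Of these, the loci that describe the groups in the text are given, and results for some loci are not reported here. A further 13 loci were chosen after their values were seen. The comparison, the lists and the rule were chosen with earlier results of these data known. Each fish is 1 sample, and the labels give no batch.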

Additional observations from a re-analysis of the deposited data

Results flagged for a closer look

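In groups of 10 fish of 1 age, each fish's gap to the nearest other fish was divided by the range of the group. A fish was singled out where this ratio passed Dixon's 95% critical value. For loci the ratio was taken on log2 CPM, while the levels given below are CPM. Chance alone gives about 1 such fish in 20 groups. Of 266 groups checked, 36 had such a fish, and in 22 of the 36 it was 18-week fish 1.

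That fish was the lowest of its age for FKBP4 (29.0 CPM), DNAJB5(2OF2) (0.943 CPM), GRK7A (51.1 CPM), GRK1(2OF2) (11.1 CPM), GRK1B (34.0 CPM), RPGRB (0.943 CPM), UNC119 (114 CPM), PCDH15A XLOC_018820 (1.51 CPM), PCLOA (250.5 CPM), IGF1RA (2.26 CPM), CYP24A1 (0.754 CPM), SI:DKEY-33I22.3 (149.6 CPM), XLOC_003863 (8.68 CPM) and C8ORF42 (9.43 CPM). It was the highest of its age for FABP7A (143.5 CPM), PFKPB (176 CPM), MAP1LC3B (298.8 CPM) and PER2(1OF2) (31.1 CPM). Its share of counts on the 2 most abundant loci was 18.3%, its ambiguous reads made up 1.85%, and its mean correlation with its age was 0.886 over all tested loci and 0.847 over loci with at least 10 CPM. The cause was not tested.

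Among the other 18-week fish, BDNF was at 1.11 CPM in fish 9, DSPA at 2.79 CPM in fish 5 and CTSZ at 3.91 CPM in fish 8, each the lowest of its age. Among 12-week fish, ARNTL was highest in fish 9 (10.8 CPM), and SOD3 (9.97 CPM) and the HIST1H2BD(2OF2) loci XLOC_005749 (26.1 CPM) and XLOC_005528 (19.7 CPM) were highest in fish 7. The lowest 12-week values singled out were RLBP1B in fish 8 (50.9 CPM), IGF2BP3 in fish 3 (1.51 CPM), IGF2BP1 in fish 8 (0.442 CPM), SIGIRR in fish 3 (0 CPM), BX465203.1 in fish 5 (19.6 CPM), CCK (1 OF 2) in fish 7 (6.90 CPM) and PER2 XLOC_015352 in fish 5 (7.68 CPM).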

How the results depend on the processing

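The main counts were 36 loci higher and 107 lower, with 7 higher and 15 lower in the late step alone. With library size alone they were 69 and 50, with 6 lower in the late step alone. RLE factors gave 36 and 107, and upper-quartile factors 36 and 100. With no filter beyond 1 count they were 64 and 176, with 23 lower in the late step alone. With the RPE and melanin score as covariate 64 were lower, 8 of them in the late step alone, and STRA6 (XLOC_019184), RGRB, RLBP1B and DCT turned to 0.14, 0.22, 0.21 and 0.015 on the log2 scale. Without the log2 limit 726 were higher and 969 lower, 22 and 70 of them in the late step alone. DESeq2 called 35 higher and 111 lower, and 141 of its calls were shared with the 143.

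Leaving out 1 fish gave 31 to 42 higher, 79 to 135 lower, 3 to 10 higher in the late step alone and 4 to 22 lower. Of the 126 loci examined fish by fish, 43 passed the test of the late against the early step. Of these, 16 passed it in all 30 fits that leave out 1 fish and 27 in only some. For 10 it held in 20 fits or fewer, the fewest being 11. The difference in mean correlation within an age was −0.0080 over all tested loci, and leaving out 1 fish gave −0.0105 to 0.0079, the highest being without 18-week fish 1, when the sign turned. Over loci with at least 10 CPM it was −0.0176 (permutation p = 0.0007), and 0.0070 without 18-week fish 1 (permutation p = 8.66e-05), a setting chosen after seeing the data. Fish of an age share pairwise correlations, so these p-values do not test a difference in likeness.

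With the replicate number as a block, 37 loci were higher and 102 lower, 131 of them shared with the main calls, and 7 higher and 14 lower were in the late step alone. Over all tested loci, fish of the same number correlated at −0.0881 to 0.193 between 18 and 12 weeks and at −0.109 to 0.0934 between 12 and 6 weeks. In each case 1 of 10 correlated best with its own number, so the fish were not treated as pairs. This check compares each fish with its own number alone and cannot show sets of numbers, such as fish 1, 2, 6 and 7. Sets of numbers were not tested. At single loci, such as NDRG1B and HSPA1A, the same numbers were the highest at 12 and 6 weeks. For loci with counts of a few reads per fish, such as HENMT1, SOD3 and SIGIRR, depth limits the precision of a single fish's level.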
